A study of Mus musculus with 8 samples.

Results

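The genes described here are 30 genes of sterol and fatty acid synthesis and its control, among the 28460 gene symbols of the deposited table. They were chosen by name for their function: 16 enzymes of the route from acetyl-CoA to cholesterol, 5 genes of SREBP control, 3 of sterol transport and 6 of fatty acid synthesis. All 30 were found and all 30 passed the filter on low counts. RNA was sequenced from cells of mouse testes at postnatal day 12 that the labels call spermatogenic, in 4 libraries of Brg1 wild type (Brg1WT genotype, here Brg1 WT or WT) and 4 of a conditional knockout of Brg1 (Brg1cKO genotype, here Brg1 cKO or cKO), all of mixed strain background. The design text calls the 4 per genotype biological replicates. No source used here gives the Cre driver, the deleted exons or any pooling of animals. Brg1, encoded by Smarca4, is an ATPase that moves nucleosomes as part of the SWI/SNF complex.

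Cholesterol is built from acetyl-CoA through mevalonate, the isoprenoids, squalene and lanosterol. When sterols are scarce in the endoplasmic reticulum, Scap escorts SREBP precursors to the Golgi, where proteases release the transcription factors that switch on these enzymes. Insig proteins hold the complex back when sterols are plentiful. In the testis, Sertoli cells supply lipids to the germ cells and Leydig cells use cholesterol to make androgens, while meiotic germ cells make sterol intermediates of their own.

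Library totals ran from 20456743 to 32596038 estimated counts, and the 30 genes took 0.403% to 0.448% of them. Smarca4 itself had 337.9 to 356.6 CPM (estimated counts per 1000000, on TMM-scaled totals) in WT and 110.9 to 129 CPM in cKO, which is -1.52 ± 0.061 on the log2 scale (SE, n = 4 each; edgeR quasi-likelihood test, adjusted p = 6.8e-06). Germ cell and somatic transcripts were present in every library. The germ cell helicase gene Ddx4 had 148 to 238 CPM and the Sertoli cell product Clu 2429 to 4667 CPM, so the RNA labelled as from spermatogenic cells held somatic transcripts too. In such bulk samples, fewer cells of a type and less RNA per cell cannot be told apart.

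Of the 30 genes, 7 fell and 3 rose in cKO at an adjusted p under 0.05 (edgeR), against 11.8% of all tested genes called lower and 8.79% called higher. This makes 23.3% of the 30 genes lower and 10% higher, and 33.3% called in all against 20.6% of the 16059 genes tested. With library totals alone as the scale, in place of TMM, 12 were lower and 2 higher, while the calls over all genes went from 1900 lower and 1412 higher to 2184 and 812. The falls were those of Mvd, Fdps, Sqle, Lss and Nsdhl in cholesterol synthesis and of Acaca and Scd1 in fatty acid synthesis. The rises were those of Ebp, a late cholesterol enzyme, Npc2, a sterol carrier of the lysosome, and Scd2, a fatty acid desaturase. All 10 changes were under 2-fold, the largest being that of Scd1, at 1.65-fold. The libraries of the genotypes did not overlap for 11 of the 30 genes, 7 lower and 4 higher, where 26.0% of all tested genes did not overlap (15.0% lower and 11.1% higher). The median log2 fold change over the 30 genes was -0.11, beside 0.01 over all genes tested.

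**Figure D1:**
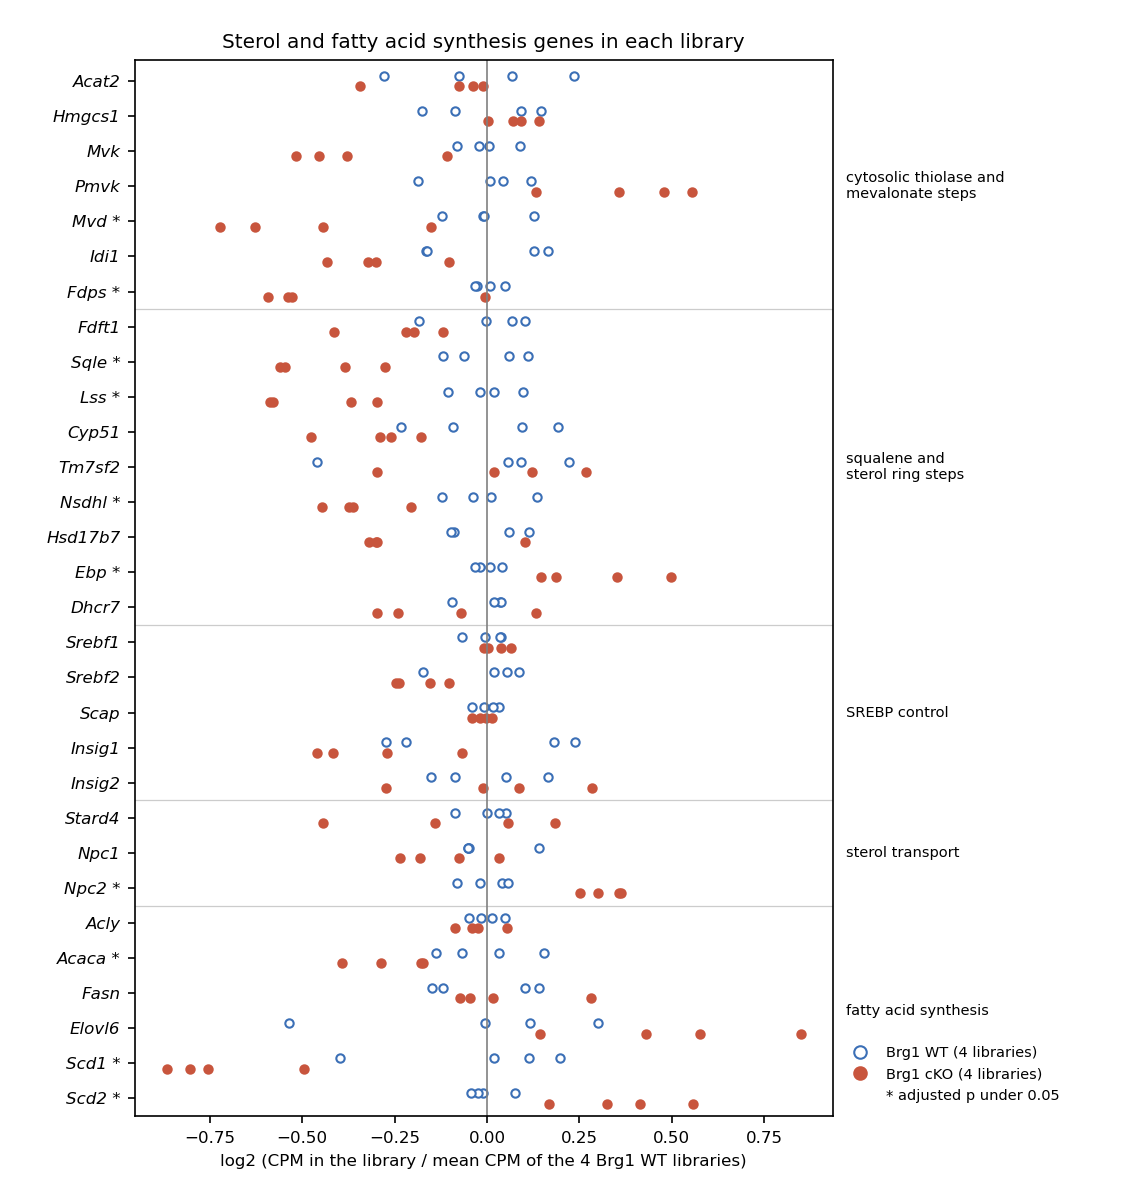
Each point is 1 library, placed on the x axis at the log2 ratio of its CPM to the mean CPM of the 4 WT libraries, with the 30 genes on the y axis grouped by role and genes with an adjusted p under 0.05 starred. cKO points lie to the left for most of the cholesterol enzymes, to the right for Ebp, Npc2 and Scd2, and on top of WT for Srebf1, Scap and Acly.

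The count depended on single libraries. It was 4 without WT replicate 2, 3 without WT replicate 3, 5 without WT replicate 4 and 4 without cKO replicate 1, while the number called over all genes fell as well, to 1777, 2135, 2739 and 1608. Without cKO replicate 3 it was 7, with 4 lower in place of 7. Over all genes that fit called 1881, with 1187 lower in place of 1900. Without WT replicates 1 and 2 together, Sqle, Lss and Scd1 were the 3 genes called, all lower, beside 438 of all genes. Sqle and Lss were called in each of 18 alternative fits, Npc2 in 17, Scd1 in 16 and Scd2 in 15. Mvd was called in 11, Nsdhl in 10, Ebp in 8, Fdps in 7 and Acaca in 5, although no alternative turned the direction of any of these 10 genes.

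**Figure D2:**
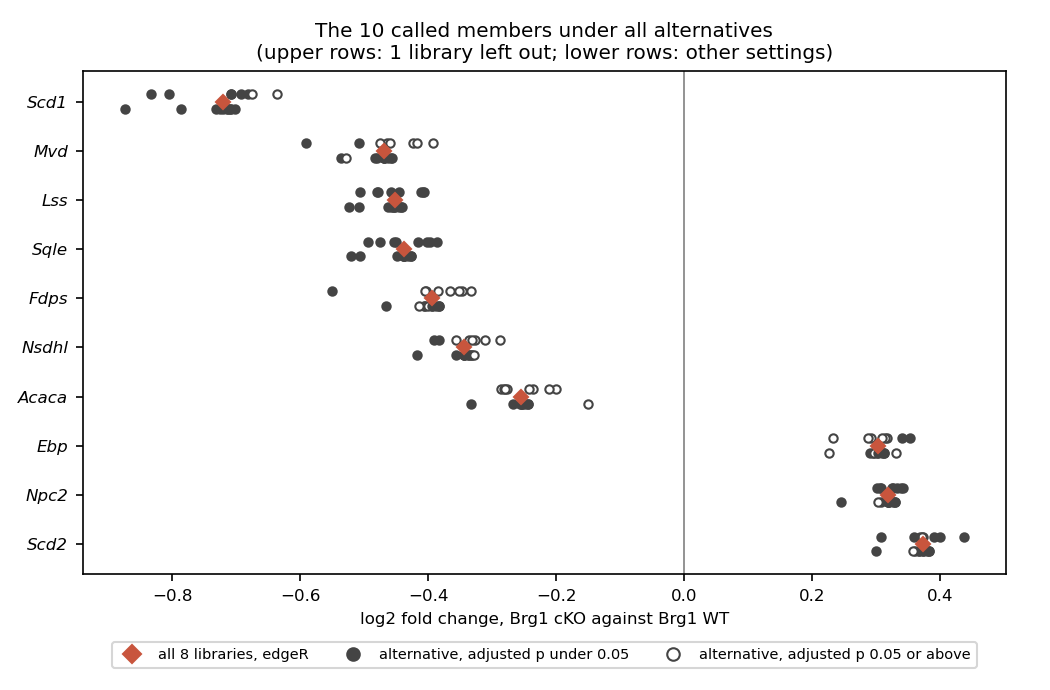
The x axis is the log2 fold change of cKO against WT and the y axis lists the 10 genes called with all 8 libraries (diamonds). Circles are the 18 alternatives, filled where the adjusted p was under 0.05. All circles of a gene lie on the same side of 0, and those of Sqle and Lss are all filled.

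The 7 genes of the acetoacetyl-CoA and mevalonate steps had 2 lower and 5 not called, at a median log2 fold change of -0.29. Over all genes tested, 11.8% were called lower and 8.79% higher. Mvd decarboxylates diphosphomevalonate to isopentenyl diphosphate, the isoprenoid building block. It had 21.7, 23.4, 23.4 and 25.7 CPM in WT replicates 1 to 4 and 14.3, 21.2, 15.2 and 17.3 CPM in cKO replicates 1 to 4. Every cKO library lay below every WT library, with cKO replicate 2 just under the lowest of them. On average it had 23.6 ± 1.67 CPM in WT and 17.0 ± 3.07 CPM in cKO (SD, n = 4 each), and the fold change was -0.47 ± 0.13 on the log2 scale (SE; edgeR adjusted p = 0.032). With 1 library left out at a time, it was called in the fits without WT replicate 1 and without cKO replicate 2 and missed the threshold in the other 6.

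Fdps joins isoprenoid units into farnesyl diphosphate, from which squalene and prenyl groups are made. WT replicates 1 to 4 had 66.8, 68.4, 70.4 and 66.5 CPM, a narrow range. cKO replicates 1, 3 and 4 had 45.1, 46.9 and 47.2 CPM, but cKO replicate 2 had 67.8 CPM, inside the range of WT. The log2 fold change was -0.39 ± 0.12 (SE, adjusted p = 0.048), and -0.55 (adjusted p = 0.0018) without cKO replicate 2. Of the 8 fits that left out a library, that was the 1 fit that called it. Other genes or pseudogenes hold 27.9% of its 31-base words, so that part of its count may be shared.

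The other genes of these steps were not called. Mvk, the kinase that phosphorylates mevalonate, lay nearest to the threshold (adjusted p = 0.052), with 12.9 to 14.5 CPM in WT and 9.55 to 12.7 CPM in cKO and no overlap. Pmvk, the next kinase of the route, had 6.14 to 7.59 CPM in WT and 7.66 to 10.3 CPM in cKO (adjusted p = 0.060), again with no overlap but in the other direction. Idi1, which interconverts the isoprenoid isomers, had 82.4 to 104 CPM and 68.4 to 86.0 CPM (adjusted p = 0.070). Of the 31-base words of Idi1, 27.1% recur in other genes. Hmgcs1, which makes HMG-CoA and is a classic SREBP target, had 263 ± 27.2 CPM in WT and 277 ± 11.0 CPM in cKO. Its difference of 0.08 ± 0.079 on the log2 scale was within its error. Acat2, the cytosolic thiolase, had 57.2 ± 8.57 and 53.0 ± 5.35 CPM, and 43.8% of its 31-base words also occur in its paralog Acat3.

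Squalene and the sterol rings are the business of the next 9 genes, of which 3 fell, 1 rose and 5 were not called, at a median of -0.23. The shares of all genes tested were 11.8% lower and 8.79% higher, and 9 genes are few to set against them. Sqle encodes squalene epoxidase, a rate-limiting enzyme of the later route. Its levels were 61.3, 63.8, 71.9 and 69.4 CPM in WT replicates 1 to 4 and 45.6, 55.0, 45.2 and 51.0 CPM in cKO replicates 1 to 4. All 4 cKO libraries were below the lowest WT library. The log2 fold change was -0.44 ± 0.084 (SE, adjusted p = 0.0092), and it stayed between -0.52 and -0.39 over the 18 alternatives.

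Lss, lanosterol synthase, closes the rings on the epoxide made by Sqle. WT replicates 1 to 4 had 59.5, 56.0, 64.5 and 61.0 CPM, and cKO replicates 1 to 4 had 40.4, 46.7, 40.1 and 49.1 CPM. The groups were again apart, with cKO replicates 2 and 4 nearest to WT. The fall was 1.37-fold, or -0.45 ± 0.083 on the log2 scale (SE; edgeR adjusted p = 0.0081).

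Nsdhl, an X-linked sterol dehydrogenase that helps remove the methyl groups at C4, had 19.1, 22.9, 21.0 and 20.3 CPM in WT replicates 1 to 4. It had 16.2, 16.1, 18.0 and 15.3 CPM in cKO replicates 1 to 4, with no overlap. The log2 fold change was -0.34 ± 0.093 (SE, adjusted p = 0.030), and of the 8 fits that left out a library those without WT replicate 1 and without cKO replicate 3 called it. Ebp, the sterol isomerase that shifts the double bond of the B ring and is also X-linked, went the other way. Its 27.8, 27.1, 26.7 and 26.4 CPM in WT replicates 1 to 4 lay close together, and its 34.5, 29.9, 38.1 and 30.8 CPM in cKO replicates 1 to 4 were all higher. The rise was 1.23-fold (log2 fold change 0.30 ± 0.087 SE, adjusted p = 0.038), and 0.23 with an adjusted p = 0.13 on library totals alone. Leaving out cKO replicate 2 or 4 kept the call, and leaving out any of the other 6 libraries lost it.

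Among the uncalled ring genes, Cyp51, which removes the methyl group at C14, had 54.0 to 72.4 CPM in WT and 45.6 to 56.0 CPM in cKO (log2 fold change -0.30 ± 0.10 SE, adjusted p = 0.065). Fdft1, which makes squalene, had 59.8 to 73.0 CPM and 51.1 to 62.7 CPM (adjusted p = 0.076). Of the 31-base words of Fdft1, 17.6% occur on the opposite strand of Ctsb, a cathepsin gene that rose from 151 ± 8.34 to 199 ± 4.06 CPM, and no source used here says whether the counting of these stranded libraries used strand. Hsd17b7, which reduces the C3 ketone, had 25.7 to 26.1 CPM in cKO replicates 1 to 3 but 34.4 CPM in replicate 4, beside 29.9 to 34.6 CPM in WT. Dhcr7, the last enzyme of a branch to cholesterol, had 63.3 ± 2.70 and 58.7 ± 8.07 CPM, and Tm7sf2, a sterol reductase, had 4.93 ± 0.94 and 5.07 ± 0.81 CPM.

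**Figure D3:**
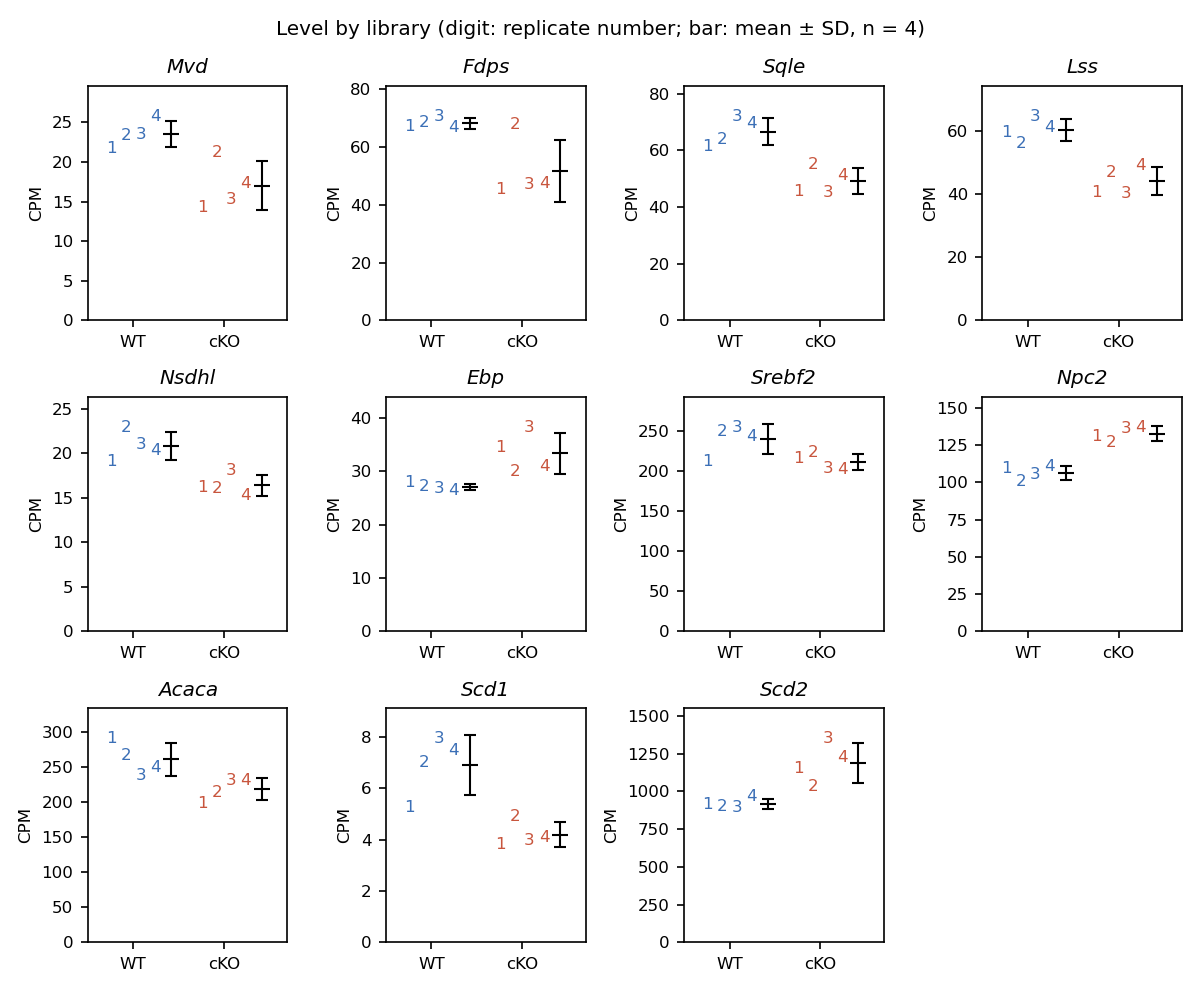
Levels in CPM (y axis, from 0) of the 10 genes called and of Srebf2, by genotype; digits are replicate numbers and bars the mean ± SD of 4 libraries. cKO replicate 2 stands at 67.8 CPM for Fdps, level with WT, and at the lower edge of cKO for Ebp, Npc2 and Scd2.

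Promoter sequences from RefSeq (build GRCm38.p6, matched by symbol) were at hand for 23 of the 30 genes. Fdft1, Fdps, Npc1, Scd1, Scd2, Sqle and Stard4 were not matched. In windows of 300 bases, from 250 before to 50 after the start, the sterol regulatory element core TCACNCCAC was found on either strand in 1 of the 23 genes (4.35%) and in 1.44% of 27025 genes. The CCAAT box, the letters bound by NF-Y, a usual partner of SREBP, was found in 19 of the 23 (82.6%) and in 41.1% of all genes. The GC box GGGCGG was found in 19 (82.6%) and 38.2%. All 23 genes passed the filter on low counts, while the 27025 were not limited to genes that did. The shares thus compare unlike sets of genes. Such matches are letters only and say nothing of binding. Other forms of these motifs were not searched, so a gene without a match may still hold such an element. The 150 bases before the start are shown for 3 of the 4 matched genes that fell (Mvd, Lss and Nsdhl). They are also shown for both matched genes that rose (Ebp and Npc2) and for Hmgcs1, the gene with a match to the sterol element core. The fourth matched gene that fell, Acaca, is not shown, and its window of 300 bases held 0 matches to any of the 3 motifs. Capitals mark the sterol element core, the CCAAT box and the GC box, each read on either strand.
Mvd (chr8:122443423-122443572, minus strand): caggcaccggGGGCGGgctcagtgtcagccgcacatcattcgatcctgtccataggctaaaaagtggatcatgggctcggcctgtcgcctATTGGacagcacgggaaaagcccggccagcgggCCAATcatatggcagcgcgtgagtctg
Lss (chr10:76531455-76531604, plus strand): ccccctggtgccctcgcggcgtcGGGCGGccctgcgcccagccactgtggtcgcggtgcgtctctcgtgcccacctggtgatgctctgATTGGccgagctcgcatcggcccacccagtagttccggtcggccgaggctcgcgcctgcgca
Nsdhl (chrX:72918371-72918520, plus strand): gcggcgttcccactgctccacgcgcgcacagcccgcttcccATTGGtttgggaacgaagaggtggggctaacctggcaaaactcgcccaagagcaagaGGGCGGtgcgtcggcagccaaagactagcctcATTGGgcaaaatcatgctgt
Ebp (chrX:8193513-8193662, minus strand): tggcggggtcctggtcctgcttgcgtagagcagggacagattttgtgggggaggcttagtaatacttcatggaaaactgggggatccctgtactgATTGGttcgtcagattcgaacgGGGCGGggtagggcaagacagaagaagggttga
Npc2 (chr12:84773113-84773262, minus strand): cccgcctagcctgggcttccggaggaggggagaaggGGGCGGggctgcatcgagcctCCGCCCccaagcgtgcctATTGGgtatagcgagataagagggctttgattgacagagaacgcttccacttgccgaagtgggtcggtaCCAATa
Hmgcs1 (chr13:119690201-119690350, plus strand): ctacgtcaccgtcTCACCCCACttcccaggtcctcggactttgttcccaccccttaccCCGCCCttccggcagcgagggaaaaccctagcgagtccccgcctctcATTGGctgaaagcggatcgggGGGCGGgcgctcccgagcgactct
These 6 windows each held at least 1 CCAAT box and at least 1 GC box, and that of Acaca held neither, so that the 6 called genes with a matched promoter were not uniform in these letters. The match to the core letters TCACNCCAC stood in Hmgcs1, whose level was not called different. As other forms of the element were not searched, this does not show which genes have one.

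No gene of SREBP control was called, with 1 of the 5 at an unadjusted p under 0.05 in edgeR and 0 called by DESeq2. Over all 16059 genes tested, 5897 had an unadjusted p under 0.05 in edgeR and DESeq2 called 27.7%. Srebf2, the factor that mainly drives cholesterol genes, had the highest mean CPM of the 5, not scaled for transcript length. It had 213, 249, 255 and 243 CPM in WT replicates 1 to 4 and 216, 223, 204 and 202 CPM in cKO replicates 1 to 4. WT replicate 1 lay inside the range of cKO, and the other 3 WT libraries lay above all of cKO. The log2 fold change was -0.18 ± 0.070 (SE, adjusted p = 0.089), and -0.24 (adjusted p = 0.041) without WT replicate 1. The 5 genes summed to 613.6 to 679.1 CPM in WT and 596.3 to 609.7 CPM in cKO, without overlap, although each gene overlapped on its own. The sum followed Srebf2, with means of 240 and 211 CPM, and Insig1, with 119 and 96.6 CPM. The other genes of this role differed by less than their error.

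Srebf1, the sister factor that mainly drives fatty acid genes, had 71.3 to 76.7 CPM in WT and 74.3 to 78.2 CPM in cKO. Scap, the escort of both, had 168 to 177 CPM and 168 to 174 CPM. Their differences were 0.02 ± 0.051 and -0.01 ± 0.047 on the log2 scale (SE, n = 4 each), so that these 2 genes were measured closely and differed by less than their error. Insig1, itself a sensitive SREBP target, spread widely within WT, with 98.2, 102, 135 and 139.7 CPM in replicates 1 to 4. The Sertoli cell factor Sox9 was also lower in WT replicates 1 and 2 (170.0 and 176 CPM) than in replicates 3 and 4 (248 and 277 CPM). Other Sertoli cell markers did not all share this split. In WT replicates 1 to 4, Inha had 312, 359, 208 and 287 CPM and Amhr2 had 358, 329, 347 and 360 CPM. The part of Sertoli cell content in the spread of Insig1 was not tested. cKO had 86.1 to 113 CPM of Insig1, which is -0.30 ± 0.14 on the log2 scale (SE; adjusted p = 0.15). Insig2, the less sterol-responsive form, had 46.1 ± 4.58 and 47.2 ± 7.45 CPM.

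Of the 3 transport genes, only Npc2 was called, beside 20.6% of all genes tested. Npc2 is the soluble lysosomal protein that hands cholesterol from endocytosed lipoprotein to the membrane protein Npc1. It had 109, 100.5, 105 and 111 CPM in WT replicates 1 to 4 and 131, 127, 136 and 137 CPM in cKO replicates 1 to 4. The gap between the groups was wider than the spread within either, and the log2 fold change was 0.32 ± 0.054 (SE, adjusted p = 0.0061). Its partner Npc1 had 50.1 to 57.3 CPM in WT and 44.2 to 53.1 CPM in cKO (log2 fold change -0.11 ± 0.078 SE, adjusted p = 0.33). Stard4, a cytosolic sterol carrier, had 49.0 to 54.0 CPM in WT but 38.3 to 59.2 CPM in cKO, on both sides of it.

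The 6 genes of fatty acid synthesis had 2 lower, 1 higher and 3 not called, beside 11.8% lower and 8.79% higher of all genes tested. Acaca, the carboxylase that makes malonyl-CoA and commits carbon to fatty acids, had 290.3, 267, 237 and 249 CPM in WT replicates 1 to 4 and 199, 214, 231 and 230.4 CPM in cKO replicates 1 to 4. The groups did not overlap, but 237 and 231 CPM are close. Of the genes called it lay nearest to the threshold. The log2 fold change of -0.26 ± 0.079 (SE, adjusted p = 0.048) was not called in any fit that left out a library and was -0.15 (adjusted p = 0.30) without WT replicates 1 and 2. In the GENCODE M21 transcripts, 31.7% of its 31-base words recur in the processed pseudogene Gm5182, which has no row in the deposited table.

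Scd1 and Scd2 encode close paralogs that put the first double bond into saturated fatty acids, and they moved in opposite directions. Scd1 had 5.26, 7.02, 7.95 and 7.49 CPM in WT replicates 1 to 4 and 3.80, 4.92, 3.97 and 4.11 CPM in cKO replicates 1 to 4. Its fall rested on 83 to 260 counts per library (log2 fold change -0.72 ± 0.17 SE, adjusted p = 0.017). Scd2 had 911, 903, 891 and 967 CPM in WT replicates 1 to 4 and 1149, 1032, 1350.1 and 1224 CPM in cKO replicates 1 to 4 (log2 fold change 0.37 ± 0.088 SE, adjusted p = 0.019). Neither gene's groups overlapped, Scd1 being lower in all 4 cKO libraries and Scd2 higher. The call of Scd1 was lost without WT replicate 3 or cKO replicate 1, and that of Scd2 without WT replicate 2 or WT replicate 3.

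The number of Scd2 counts per Scd1 count was 136 ± 26.1 in WT and 288 ± 55.2 in cKO (SD, n = 4 each), from 112 to 173 and from 209.7 to 340.1. This ratio is of counts and is not scaled for transcript length. Of the 31-base words of Scd1, 8.18% recur in other genes, and of those of Scd2, 6.81%, most often in Scd3 for both, so that some reads cannot be assigned to a single gene. The other mouse paralogs Scd3 and Scd4 had 2.44 to 4.30 CPM and 3.41 to 5.19 CPM and were not called.

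Acly, Fasn and Elovl6 were not called. Acly, which makes cytosolic acetyl-CoA from citrate, had 417 ± 12.2 CPM in WT and 411 ± 16.6 CPM in cKO, a log2 fold change of -0.02 ± 0.057 (SE). Fasn, the fatty acid synthase, had 774 ± 79.9 and 802 ± 94.7 CPM, a log2 fold change of 0.05 ± 0.10 (SE). Elovl6, which lengthens palmitate, had 12.4 to 22.1 CPM in WT and 19.8 to 32.3 CPM in cKO, which is 0.52 ± 0.19 on the log2 scale (SE; adjusted p = 0.083). WT replicate 1, with 12.4 CPM, was the lowest library for Elovl6 and also for Scd1 among the WT libraries.

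Among the cKO libraries, replicate 2 had the highest level of 4 of the 7 genes that fell and the lowest level of all 3 genes that rose. Replicate 1 had the lowest level of 4 of the 7. Replicate 2 lay nearest to WT for the Sertoli cell, pan-germ cell and spermatogonial marker lists, but not for every list. Summed over 12 Sertoli cell markers, cKO replicate 2 had 6563 CPM beside 8478, 8981 and 8517 CPM in replicates 1, 3 and 4, and 5210 to 6808 CPM in WT. Over 10 pan-germ cell markers it had 1845 CPM beside 1344, 1356 and 1676 CPM, and 1741 to 2206 CPM in WT. Over 8 spermatogonial markers it had 981 CPM beside 715, 726 and 857 CPM, and 983 to 1119 CPM in WT. For the 6 endothelial markers, replicate 2 lay farthest from WT, with 381 CPM beside 242, 172 and 154 CPM, and 146.5 to 235 CPM in WT. For the 7 stromal markers, replicate 4 stood apart, with 1116 CPM beside 2086, 2377 and 1944 CPM, and 877 to 1424 CPM in WT. Replicate 4 was also lowest for the 7 Leydig cell markers, with 20.0 CPM beside 59.2, 71.2 and 53.8 CPM. The part of cell composition in the results above was not tested.

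**Figure D4:**
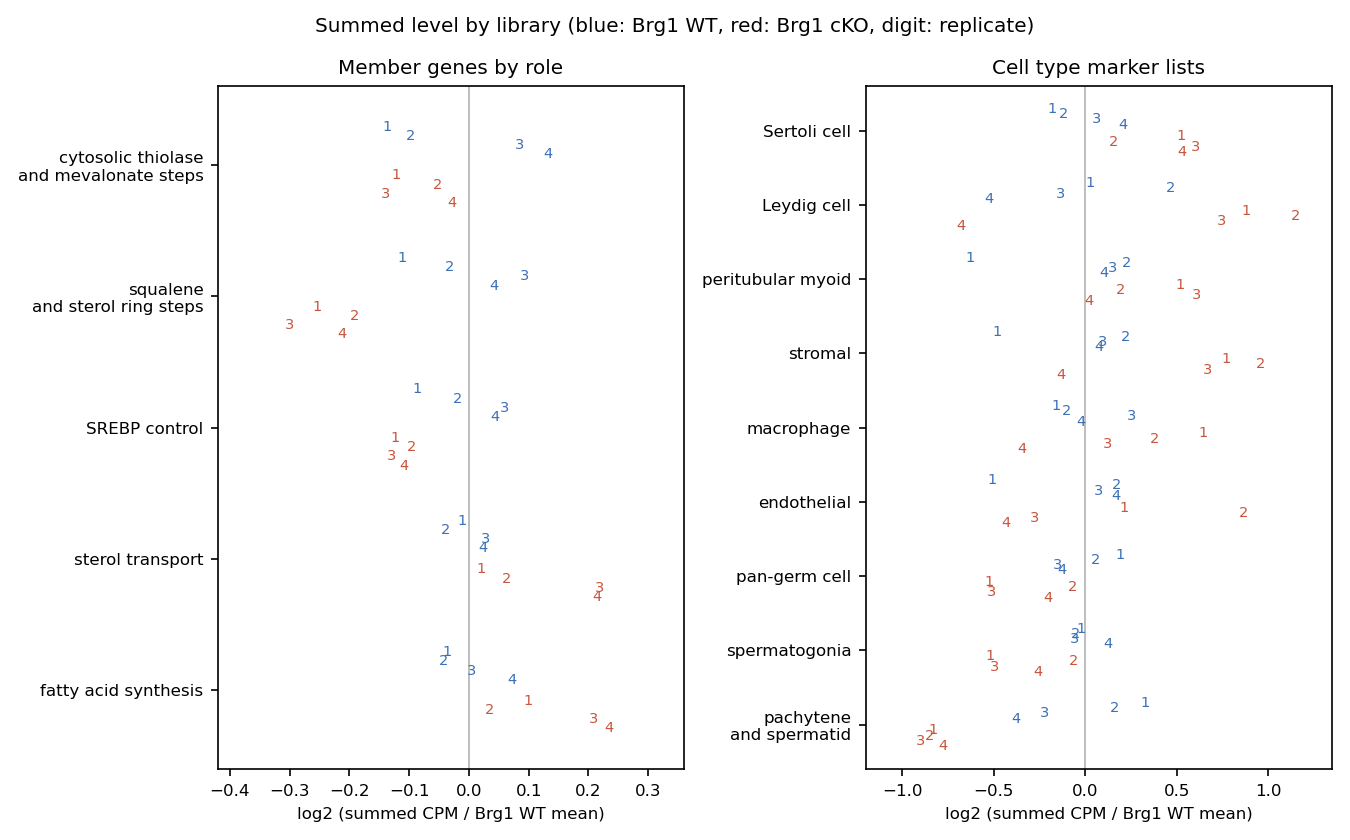
The x axes give the log2 ratio of summed CPM to the mean of WT for the genes by role (left) and for cell type marker lists (right), with blue and red digits for WT and cKO replicates. Squalene and ring genes are lower in all 4 cKO libraries, as are pachytene and spermatid markers. Spermatogonial markers are too, but barely in cKO replicate 2 (981 CPM beside 983 CPM in the lowest WT library). cKO replicate 2 lies nearest to WT for the Sertoli cell, pan-germ cell and spermatogonial lists.

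Marker values beside these results were as follows. Over all 16059 genes tested, edgeR called 20.6%, 5897 had an unadjusted p under 0.05 in edgeR, and DESeq2 called 27.7%. Of 12 Sertoli cell markers 4 rose by edgeR, at a median log2 fold change of 0.39, with 8 at an unadjusted p under 0.05 and 8 called higher by DESeq2. Of 10 pan-germ cell markers 2 fell by edgeR, at a median of -0.35, with 7 at an unadjusted p under 0.05 and 5 called lower by DESeq2. Of 8 spermatogonial markers 4 fell by either tool, with 5 at an unadjusted p under 0.05, and of 9 tested pachytene and spermatid markers 6 fell by either tool, with 7 at an unadjusted p under 0.05. No Leydig cell marker was called by edgeR, with 1 of 7 at an unadjusted p under 0.05 and 0 called by DESeq2, and their summed level was 22.3 to 44.4 CPM in WT and 20.0 to 71.2 CPM in cKO. Macrophage and endothelial markers, 7 and 6 genes, had 0 called by edgeR, 0 at an unadjusted p under 0.05 and 0 called by DESeq2, with summed levels of 37.9 to 50.5 and 146.5 to 235 CPM in WT and of 33.3 to 66.3 and 154 to 381 CPM in cKO. Stromal markers summed to 877 to 1424 CPM in WT and 1116 to 2377 CPM in cKO, with 1 of 7 higher by edgeR, 4 at an unadjusted p under 0.05 and 4 higher by DESeq2. Peritubular myoid markers summed to 744 to 1345 CPM and 1167 to 1751 CPM, with 1 of 6 lower by either tool and 1 at an unadjusted p under 0.05. Pgk2, a marker of late spermatocytes and spermatids, had at most 2 counts in any library, and every other marker was above 0 in all libraries.

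Other genes of the same pathways, 37 in a list written for this comparison, had 6 higher, 3 lower and 27 not called among the 36 tested. This makes 25% called, near the 20.6% of all genes tested. Of the 36, 16.7% were higher and 8.33% lower, against 8.79% and 11.8% of all genes. The lean differed by role. The median log2 fold change was -0.21 over the 6 other genes of sterol synthesis. It was 0.22 over the 13 genes of sterol uptake, export and storage and 0.13 over the 15 tested genes of fatty acid synthesis. The 13 genes of sterol uptake, export and storage had 4 higher and 9 not called. Lrp1, a large endocytic receptor, rose from 343 ± 32.4 to 467 ± 39.1 CPM (SD, n = 4 each; adjusted p = 0.010) with no overlap. The lysosomal lipase Lipa and the sterol exporters Abca1 and Abcg1 were 1.25-fold, 1.20-fold and 1.47-fold higher (adjusted p = 0.045, 0.049 and 0.046), each with overlap between the genotypes.

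Both genes of the Golgi proteases that release SREBP, Mbtps1 and Mbtps2, had positive log2 fold changes, 0.23 and 0.21. Neither was called (edgeR adjusted p = 0.062 and 0.13). Both had an unadjusted p under 0.05, as did 5897 of all 16059 genes tested. DESeq2 called 1 of them and 27.7% of all genes. In fatty acid synthesis, Acss2, which makes acetyl-CoA from acetate, fell from 69.6 ± 8.38 to 50.8 ± 5.89 CPM (adjusted p = 0.019) and Elovl4, an elongase of very long chains, from 2.80 ± 0.021 to 1.62 ± 0.33 CPM (adjusted p = 0.020). Me1, which supplies NADPH, rose from 346 ± 16.6 to 448 ± 43.8 CPM (adjusted p = 0.014) and Elovl2, an elongase of polyunsaturated chains, from 313 ± 29.0 to 407 ± 57.9 CPM (adjusted p = 0.038). The 9 calls became 5 without WT replicate 1 and 5 without WT replicate 2. They became 2 without WT replicate 3, 4 without cKO replicate 1, 4 without cKO replicate 3 and 6 without cKO replicate 4, and 1 without WT replicates 1 and 2 together. In these fits, in the same order, the calls over all genes fell from 3312 to 2037, 1777, 2135, 1608, 1881, 3219 and 438. Lrp1 and Me1 were called in all 8 fits that left out a library, Acss2 in 7, Elovl4 in 4, Abca1 and Elovl2 in 2, and Lipa and Abcg1 in 1.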

How the data were processed

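Per the labels' protocols, testes were digested with enzymes and passed through a sieve, with no sorting step named, and a Kapa stranded kit was used for the RNA-seq libraries. The authors deposited estimated counts per gene symbol for the 8 libraries in 1 table. Per the submitters' processing notes, kallisto 0.42.5, edgeR and the build mm9 were used; no source used here says how transcripts were summed to genes. Of the values, 39.4% were more than 0.001 from a whole number, and all were rounded.

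Libraries were grouped by the genotype in their labels. Brg1 cKO was compared with Brg1 WT by the edgeR 4.0.16 quasi-likelihood test (R 4.3.3; TMM factors, filterByExpr, robust dispersion, genotype only), with Benjamini-Hochberg adjustment over all 16059 genes tested and a threshold of 0.05. The standard error was the absolute log2 fold change over the square root of F. Totals per library set the precision: 20456743 to 32596038 estimated counts, with at least 81 per library for each of the 30 genes. The procedure was tested on simulated data.

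Values per library are given for called genes and for the gene with the highest mean CPM of a role with no call; the rest are given as ranges. Of the other pathway genes, those called are named, except 1 that is not reported here. The SREBP proteases and Scd3 and Scd4 were named after their values were seen, as were Ctsb, Acat3, Gm5182, Gm43738 and Gm3571 for shared sequence. The genes, lists and tests were chosen with earlier results of these data known. Alternatives were other scalings, DESeq2 1.42.0, limma-voom (limma 3.58.1), other filters, a replicate block, unrounded counts and libraries left out. Shared 31-base words were counted in GENCODE M21 transcripts, and promoters came from RefSeq (GRCm38.p6), a build other than that of the counts.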

Additional observations from a re-analysis of the deposited data

Results flagged for a closer look

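Within the 4 libraries of a genotype, the level of 1 library stood far from the other 3 in 4 of 62 groups checked, where chance flags about 1 in 20 groups. Fdps had 67.8 CPM in Brg1 cKO replicate 2, beside 45.1 to 47.2 CPM in the other Brg1 cKO libraries. Hsd17b7 had 34.4 CPM in Brg1 cKO replicate 4, beside 25.7 to 26.1 CPM. Npc1 had 57.3 CPM in Brg1 WT replicate 3, beside 50.1 to 50.3 CPM, and Dhcr7 had 59.2 CPM in Brg1 WT replicate 1, beside 64.0 to 64.9 CPM. Of these genes only Fdps was called by edgeR with all 8 libraries.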

How the results depend on the processing

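Smarca4 and the 10 genes called kept their direction in all 18 alternatives. Leaving out 1 library at a time gave 1608 to 3477 genes called over all genes (556 to 1497 higher, 1052 to 1980 lower), 3 to 10 of the 30 genes (1 to 3 higher, 2 to 8 lower) and 2 to 9 of the other pathway genes (2 to 5 higher, 0 to 4 lower). Without Brg1 WT replicates 1 and 2 the calls were 438 (96 higher, 342 lower), 3 (0 higher, 3 lower) and 1 (0 higher, 1 lower). Library totals alone gave 812 higher over all genes, 12 lower among the 30 and 2 higher among the other pathway genes, DESeq2 gave 2228 higher and 5 higher among the 30, and limma-voom 3 higher among the other pathway genes. The causes were not tested.

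With the replicate number as a block, 1914 genes were called (745 higher, 1169 lower), 8 of the 30 genes and 4 of the other pathway genes (3 higher, 1 lower). Of the 10 genes, 6 were kept, Acaca, Ebp, Fdps and Nsdhl were lost, and Elovl6 and Idi1 were added. Deviations of same-numbered libraries from their group means had both signs (r = -0.27, 0.20, -0.45 and 0.18 across genes), 1 of 4 correlated best with its own number, and the numbers were not taken to pair the animals.

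Sign changed for genes that were not called. With library totals alone the log2 fold change was -0.038 for Tm7sf2, -0.051 for Srebf1, -0.043 for Insig2 and -0.017 for Fasn. With Brg1 WT replicates 1 and 2 left out it was -0.040 for Hmgcs1 and -0.068 for Fasn. Over the fits with 1 library left out it ran from -0.082 to 0.14 for Tm7sf2, from -0.055 to 0.13 for Insig2, from -0.16 to 0.040 for Stard4, from -0.049 to 0.00082 for Acly and from -0.033 to 0.10 for Fasn.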
